A study of Mus musculus with 16 samples.

Results

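The mitogen-activated protein kinases (MAP kinases), the kinases stacked above them and the dual-specificity phosphatases that switch them off were followed over 16 one-colour Agilent arrays of mouse hippocampus. Members were the genes whose symbol starts with Mapk, Map2k, Map3k, Map4k or Dusp followed by a digit, reached through the RefSeq transcript that the files give for each non-control probe. Of 74 symbols of this form in the RefSeq gene table, 67 had a probe on the array, among 17178 genes with a probe. These 67 genes had 103 probes. Dim probes were set aside unless all 4 arrays of some group called them well above background. This kept 64 members, with 96 probes, among 13459 genes and 29009 probes. No probe was matched to Dusp5, Map2k3os, Map3k10, Map3k15, Map3k19, Map3k8 or Map4k3. Dusp21, Map3k7cl and Mapk15 had no probe past the filter and were tested only in the alternative without it.

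The mice were males of SAM/P-8 and SAM/R-1, lines of the senescence-accelerated mouse (SAM) that the labels trace to the strain AKR/J. P lines are known as senescence-prone and R lines as senescence-resistant. The SAM/P-8 control and SAM/R-1 control groups ate the rodent diet CE-2, and the SAM/P-8 CCH and SAM/R-1 CCH groups ate CE-2 with 0.1% CCH, coral calcium hydride. Feeding started at 8 weeks of age and lasted 8 weeks. Each group had 4 arrays, and the labels name no transgene and no agent other than CCH. Replicates are numbered in the labels, but their animals are not given, and the p-values below therefore reflect the spread between these samples, which may be technical. The 4 groups were on 4 slides, 1 group to a slide. Slide effects and differences of strain or diet cannot be told apart.

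In a MAP kinase cascade a MAP3K phosphorylates a MAP2K, which phosphorylates the MAP kinase itself, and MAP4Ks can act above the MAP3Ks. Growth factors and synaptic calcium signals feed mainly into the ERK branch, and stress and inflammatory signals into the JNK and p38 branches. Dual-specificity phosphatases remove phosphate from both the threonine and the tyrosine of the activation loop, and several are themselves induced by MAP kinase signalling, which makes them feedback brakes. In hippocampal neurons ERK signalling is known for its part in synaptic plasticity and in the induction of activity-dependent early genes. The arrays measured transcripts, not phosphorylation.

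A level here is the log2 processed signal of a probe minus the 75th percentile of its array, taken over non-control probes, and each probe is compared only with itself across arrays. A gene is represented by its brightest probe, and 25 of the 64 members had more than 1 probe. Differences and their standard errors (SE) come from limma, fitted over all 16 arrays and all 29009 probes, and a probe passed at an adjusted p (Benjamini-Hochberg over all probes) under 0.05. The scanner called 28920 to 33333 of the 43379 non-control spots on an array well above background. The precision is limited by having 4 arrays in a group. The 8 hippocampal neuron markers (Prox1, Zbtb20, Wfs1 and others) were well above background on all 16 arrays. SAM/P-8 CCH replicate 4 stood apart: its score for 10 striatal markers, the mean log2 level after centring each gene over the arrays, was 3.93, while the other replicates of the group had -0.39 to 0.13, and its score for 6 pituitary and hypothalamic markers was 2.27. The 8 endothelial and pericyte markers scored 0.13 to 0.61 on the SAM/P-8 arrays and -0.60 to -0.08 on the SAM/R-1 arrays. Choroid plexus scores ran from -3.06 to 1.74 and overlapped between all groups. In whole tissue, fewer cells of a type and less RNA per cell cannot be told apart.

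Between the strains on the control diet, the members that differed were phosphatases and 1 kinase. Dusp27 and Dusp19 were higher in SAM/P-8, and Dusp12 and Map3k12 were lower. These 4 were 6.25% of the 64 members, below the 12.8% of all genes that passed in this comparison (6.18% higher and 6.61% lower). On the CCH diet 6 of 64 members passed (9.38%, against 12.6% of all genes, 6.11% higher and 6.49% lower): Dusp16 and Dusp27 were higher in SAM/P-8, and Dusp12, Map4k4, Map4k5 and Map3k12 were lower. Neither share exceeded that of the array. At an unadjusted p under 0.05 there were 7 and 14 members (10.9% and 21.9%), against 26.4% and 27.3% of all genes. Over single probes, which are also named below where a gene has several, 13.8% and 13.5% of all probes passed. The comparisons on the 2 diets share no arrays. Groups did not overlap for 8 members on the control diet, against 18.9% of all genes, and for 14 on the CCH diet, against 20.6%. For 48 and 53 of the 64 members the 95% interval of the strain difference lay inside 0.50 log2 units of 0 on the control and the CCH diet.

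**Figure D1:**
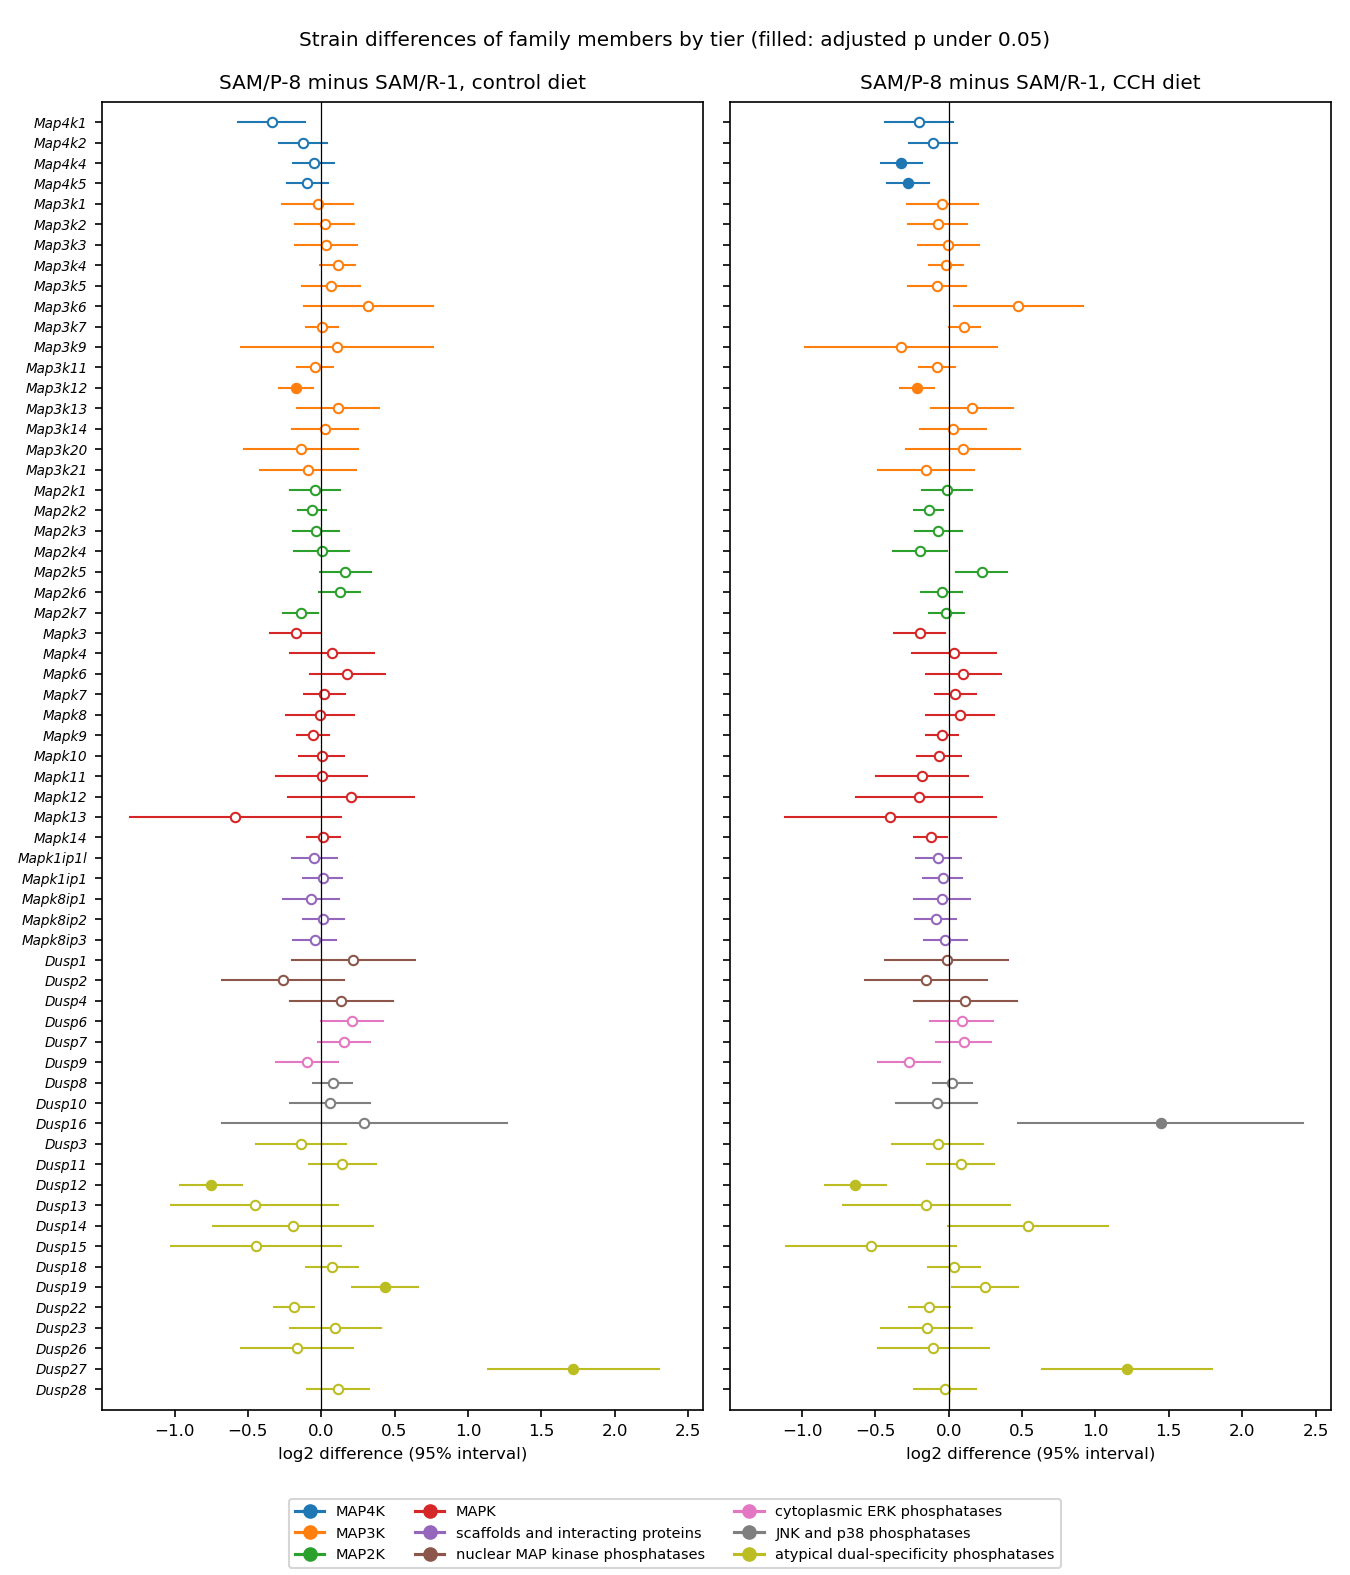
Strain difference (SAM/P-8 minus SAM/R-1, log2) of the members reported here with its 95% interval, by tier of the cascade, on the control diet at left and the CCH diet at right, over 4 and 4 arrays each; filled points passed an adjusted p of 0.05. Points lie close to 0 in most tiers, with Dusp12 low and Dusp27 high in both panels and Map4k4 and Map4k5 filled at right only.

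At the top of the cascade, all 4 MAP4Ks measured had negative strain differences on both diets, with medians of -0.11 and -0.24. Map4k4, a kinase that feeds the JNK branch and acts on the cytoskeleton, had levels of 3.57, 3.71, 3.75 and 3.72 in SAM/P-8 control and 3.54, 3.48, 3.34 and 3.56 in SAM/P-8 CCH. In SAM/R-1 it had 3.75, 3.73, 3.74 and 3.73 on the control diet and 3.67, 3.94, 3.86 and 3.75 on the CCH diet. The 4 SAM/P-8 CCH arrays were the lowest of the 16, and the groups overlapped on the control diet alone. The strain difference on the CCH diet was -0.32 ± 0.07 (SE, adjusted p = 0.0041), 1.25-fold, and on the control diet -0.05 ± 0.07 (adjusted p = 0.66). The difference between the 2 strain effects was -0.27 ± 0.09 and did not pass (adjusted p = 0.67). Its other 2 probes gave 0.06 and -0.08 on the CCH diet and did not pass, so the probes of Map4k4 disagree in sign, and the call was lost with the mean over its probes (-0.12, adjusted p = 0.27) and with the normexp background, another background correction (-0.28, adjusted p = 0.052).

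Map4k5, a related kinase, had levels of 2.37, 2.40, 2.39 and 2.26 in SAM/P-8 CCH and 2.52, 2.77, 2.70 and 2.57 in SAM/R-1 CCH. Every SAM/P-8 CCH array lay below every SAM/R-1 CCH array, and the difference was -0.28 ± 0.07 (adjusted p = 0.012). On the control diet the levels were 2.42, 2.68, 2.63 and 2.58 against 2.70, 2.66, 2.61 and 2.72. These overlapped, with a difference of -0.09 ± 0.07 (adjusted p = 0.40). The second probe of Map4k5 gave -0.15 on both diets and did not pass on either, and with the normexp background the representative gave -0.21 on the CCH diet (adjusted p = 0.16). Without SAM/P-8 CCH replicate 4 the differences on the CCH diet were -0.35 for Map4k4 (adjusted p = 0.0050) and -0.25 for Map4k5 (adjusted p = 0.036). Map4k1, known from blood cells, missed the threshold on the control diet at -0.34 ± 0.11 (adjusted p = 0.051).

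Of 14 MAP3Ks, only Map3k12 passed, on both diets. Map3k12 encodes DLK, the neuronal kinase that relays axon injury to JNK. Its levels were 3.10, 3.05, 3.09 and 3.17 in SAM/P-8 control against 3.29, 3.23, 3.26 and 3.32 in SAM/R-1 control. On the CCH diet they were 3.07, 3.04, 3.11 and 2.87 against 3.17, 3.30, 3.25 and 3.25. The strains did not overlap on either diet, yet the gap was small: -0.17 ± 0.05 (adjusted p = 0.046), 1.13-fold, on the control diet and -0.22 ± 0.05 (adjusted p = 0.016), 1.16-fold, on the CCH diet. The control-diet call was lost in 13 of 17 alternatives, with adjusted p up to 0.26, among them leaving out any 1 array other than SAM/P-8 control replicate 4. The CCH-diet call was lost in 3 of 17, with the normexp background, with only the groups compared in the fit and with the mean over probes, with adjusted p up to 0.45. The second Map3k12 probe gave -0.05 and -0.10 and did not pass. Map3k6, the stress kinase ASK2, had a representative probe that did not pass (0.32 and 0.47), while its second probe passed on the control diet at 0.69 (adjusted p = 0.030).

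None of the 7 MAP2Ks passed between the strains by limma; 1 had an unadjusted p under 0.05 on the control diet and 3 on the CCH diet, against 26.4% and 27.3% of all genes. Map2k1 (MEK1), which activates the ERKs, differed by -0.04 (95% interval -0.21 to 0.13) and -0.01 (-0.19 to 0.16) on the control and CCH diets. Map2k2 (MEK2) differed by -0.06 (-0.16 to 0.04) and -0.14 (-0.24 to -0.04), the second with an adjusted p of 0.063. A second probe of Map2k5, the kinase above ERK5, passed on the CCH diet at 0.26 (adjusted p = 0.0080), beside 0.22 (adjusted p = 0.087) for its representative probe.

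The 12 MAP kinases likewise held no call between the strains by limma, with 0 and 2 at an unadjusted p under 0.05, shares of 0% and 16.7% against the 26.4% and 27.3% of all genes. Mapk3 (ERK1) had levels of 2.20, 2.46, 2.51 and 2.47 in SAM/P-8 control and 2.55, 2.51, 2.78 and 2.50 in SAM/R-1 control. Its levels on the CCH diet were 2.36, 2.43, 2.31 and 2.25 against 2.44, 2.60, 2.64 and 2.45. The strains overlapped on the control diet (-0.17 ± 0.08, adjusted p = 0.18) and not on the CCH diet (-0.20 ± 0.08, adjusted p = 0.13).

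Among the JNKs, Mapk8 differed by -0.01 (95% interval -0.24 to 0.23) on the control diet and 0.08 (-0.15 to 0.31) on the CCH diet. Mapk9 differed by -0.06 (-0.16 to 0.05) and -0.05 (-0.16 to 0.06). The 3 probes of Mapk9 also disagreed on the CCH diet, at 0.25, 0.00 and -0.05, the first with an adjusted p of 0.026. Mapk10, the JNK most restricted to neurons, differed by 0.00 (-0.15 to 0.16) and -0.07 (-0.22 to 0.09). Mapk14, p38 alpha, differed by 0.01 (-0.10 to 0.13) and -0.12 (-0.23 to -0.01, adjusted p = 0.14). Each interval holds for the representative probe of the gene, and the first of the other Mapk9 probes lay outside it on the CCH diet. The 5 scaffold and interacting proteins, among them the JNK scaffolds Mapk8ip1 to Mapk8ip3, ran from -0.07 to 0.01 and from -0.09 to -0.02, with no call.

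Among the nuclear MAP kinase phosphatases, the cytoplasmic ERK phosphatases and the JNK and p38 phosphatases, only Dusp16 passed by its representative probe. Dusp16 (MKP-7), which dephosphorylates JNK and p38, was dim, with levels of -5.39, -3.10, -5.10 and -3.66 in SAM/P-8 CCH and -5.58, -6.01, -5.71 and -5.73 in SAM/R-1 CCH. The groups did not overlap, but 2 SAM/P-8 CCH arrays lay far above the other 2. The difference was 1.45 ± 0.45 (adjusted p = 0.049) and was lost without SAM/P-8 CCH replicate 2 (1.04, adjusted p = 0.13) or replicate 4 (1.23, adjusted p = 0.13), without any 1 of the SAM/R-1 CCH arrays (adjusted p = 0.073 to 0.11), and with the normexp background (0.19, adjusted p = 0.83); in all, 11 of 16 alternatives lost it. On the control diet Dusp16 had -5.74, -5.01, -6.09 and -5.32 against -5.59, -5.43, -5.45 and -6.87, with a difference of 0.29 ± 0.45 (adjusted p = 0.74). Replicate 4 of SAM/P-8 CCH, the array with the high striatal score, held the second highest Dusp16 level of the 16; the part of those cells in it was not tested.

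The activity-linked phosphatases did not pass between the strains. Dusp6 (MKP-3), the cytoplasmic ERK phosphatase, had levels of 3.85, 4.01, 3.89 and 3.93 in SAM/P-8 control and 3.82, 3.58, 3.70 and 3.75 in SAM/R-1 control. All SAM/P-8 control arrays were above all SAM/R-1 control arrays, by 0.21 ± 0.10 (adjusted p = 0.19). On the CCH diet the groups overlapped at 0.09 ± 0.10 (adjusted p = 0.60). Dusp1 (MKP-1), a nuclear phosphatase, differed by 0.22 ± 0.20 and -0.01 ± 0.20, and Dusp4 (MKP-2) by 0.14 ± 0.16 and 0.11 ± 0.16. Dusp9, another cytoplasmic ERK phosphatase, had a representative probe at -0.10 and -0.27 that did not pass. Its dimmer second probe passed on both diets, lower in SAM/P-8. Only 1 and 2 of the 4 SAM/P-8 arrays were well above background there, against 4 of 4 in each SAM/R-1 group. That probe thus passed the filter only through the strain where it is high, and its calls are not independent of the filter. For the processed signal the bound was 1.29-fold on the control diet (adjusted p = 0.037) and 1.56-fold on the CCH diet (adjusted p = 0.022). Such a bound sets the mean of the bright group against the dim group with each dim value raised to the lowest signal well above background on its array.

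Of the members that passed, only the atypical phosphatase Dusp12 kept its call in every alternative run. It is a zinc-binding enzyme, not known mainly for acting on MAP kinases, and had levels of 2.39, 2.33, 2.50 and 2.30 in SAM/P-8 control and 3.06, 3.06, 3.15 and 3.25 in SAM/R-1 control. In SAM/P-8 CCH it had 2.32, 2.30, 2.57 and 2.67, and in SAM/R-1 CCH 3.07, 3.37, 3.00 and 2.97. All 8 SAM/P-8 arrays were below all 8 SAM/R-1 arrays. The difference was -0.75 ± 0.10 (adjusted p = 8.6e-05), 1.68-fold, on the control diet and -0.64 ± 0.10 (adjusted p = 0.00044), 1.55-fold, on the CCH diet. It passed under all 17 alternatives run on each diet, with differences from -0.79 to -0.71 and from -0.70 to -0.55. Dusp12 has 1 probe on the array. The sequence of that probe was not used here, so a strain difference in the sequence under it and one in transcript level cannot be told apart.

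Dusp27, an atypical member known from muscle and thought to lack phosphatase activity, went the other way at the edge of detection. Its levels were -5.12, -5.04, -5.22 and -5.31 in SAM/P-8 control and -5.38, -5.74, -5.55 and -5.39 in SAM/P-8 CCH. In SAM/R-1 they were -7.31, -6.33, -6.76 and -7.16 on the control diet and -7.54, -7.02, -6.12 and -6.24 on the CCH diet. The strains did not overlap, but only 3 and 4 of the 4 SAM/P-8 arrays and 0 and 1 of the 4 SAM/R-1 arrays were well above background. On the control diet the bound for SAM/P-8 over SAM/R-1 was 1.83-fold (measured difference 1.72, adjusted p = 0.00048). On the CCH diet the bound was 1.91-fold (1.21, adjusted p = 0.0081). Dusp27 passed the filter through the SAM/P-8 CCH group alone, a group of the strain where it is high. Its calls are therefore not independent of the filter. Both bounds hold only for the processed signal: the normexp background gave 0.31 (adjusted p = 0.99) and -0.12 (adjusted p = 0.89).

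Dusp19, an atypical phosphatase tied to the JNK pathway, had levels of -1.81, -1.27, -1.56 and -1.50 in SAM/P-8 control and -1.88, -2.02, -2.08 and -1.89 in SAM/R-1 control. The groups did not overlap, and the difference was 0.43 ± 0.11 (adjusted p = 0.013), 1.35-fold, a call lost with the normexp background (0.34, adjusted p = 0.21). On the CCH diet the levels were -1.59, -1.57, -1.25 and -1.27 against -1.61, -1.61, -1.76 and -1.68, again without overlap, at 0.25 ± 0.11 (adjusted p = 0.14). Its second probe passed on both diets, at 0.35 (adjusted p = 0.039) and 0.36 (adjusted p = 0.035), and its last probe gave 0.15 and 0.17 without passing. A second probe of Dusp14 passed on the CCH diet at 0.42 (adjusted p = 0.049), beside 0.54 (adjusted p = 0.18) for the representative. The remaining 9 atypical members held no call by their representative probe.

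**Figure D2:**
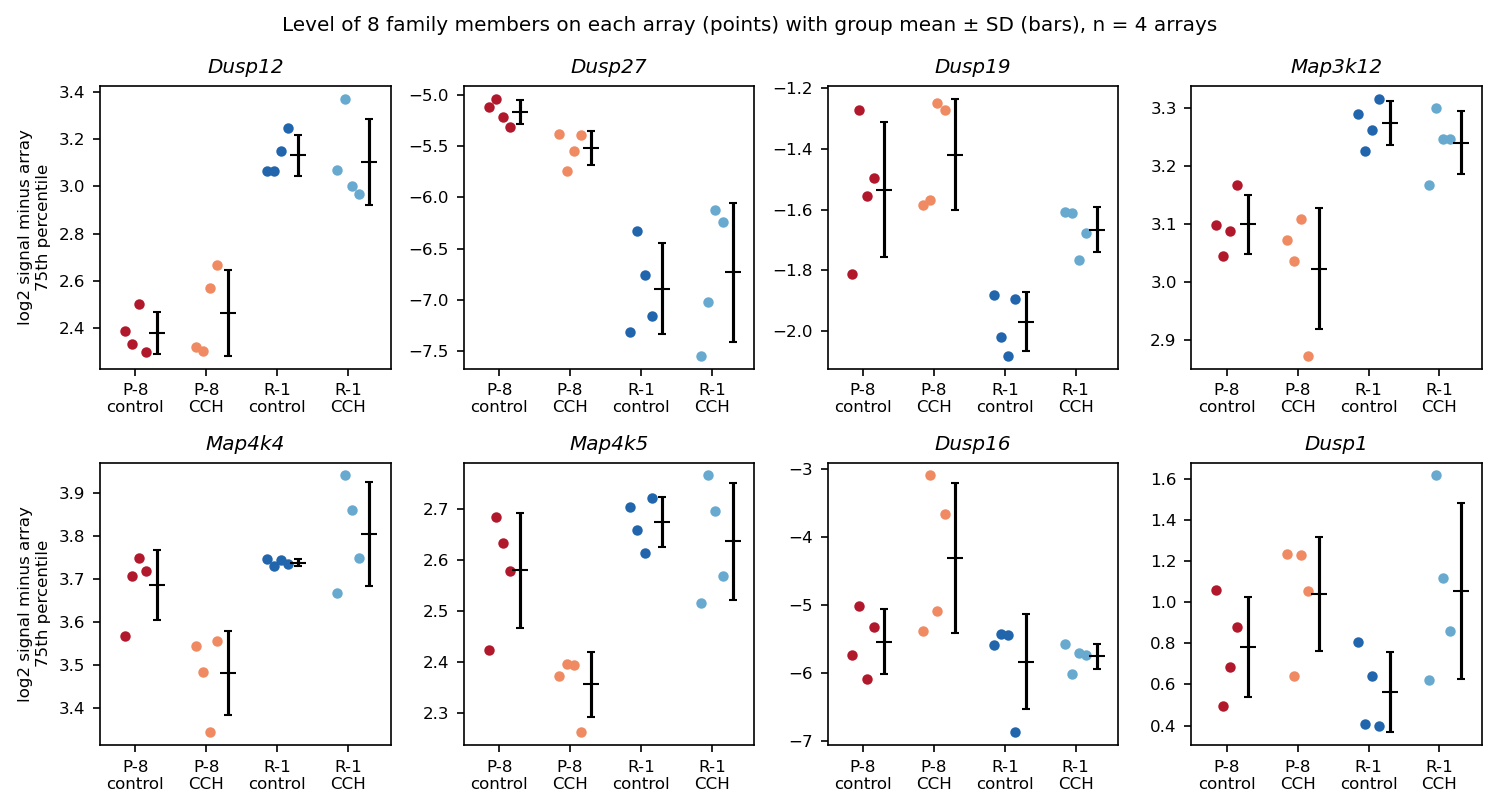
Level (log2 processed signal minus the 75th percentile of the array) of 8 members on each of the 16 arrays, with the mean ± SD of each group of 4; each panel has its own vertical range. Dusp12 separates the strains on both diets, Map4k4 and Map4k5 are lowest in SAM/P-8 CCH, and the Dusp16 difference rests on 2 of the 4 SAM/P-8 CCH arrays.

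Dusp12 and Dusp27 lie on chromosome 1 with 18 tested genes between them in the RefSeq order. Of those 18, 6 passed on the control diet and 7 on the CCH diet, all of them higher in SAM/P-8. Rgs5, one of the 8 endothelial and pericyte markers above, is among the genes higher on both diets. Of the 20 tested genes nearest to Dusp12, 11 differed on the control diet (6 higher, 5 lower) and 11 on the CCH diet (7 higher, 4 lower). Of the 20 nearest to Dusp16, 7 and 6 differed, and of the 20 nearest to Map3k12, 5 and 5. Near Dusp27 the counts were 4 and 2, near Dusp19 2 and 3, and near Map4k4 1 and 2. Near Map4k5 the counts were 0 and 1. Set against 12.8% and 12.6% of all genes, the neighbourhood of Dusp12 held the highest count of called genes among the 7 members described here.

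On the CCH diet 44 of 64 members, 27 of 37 kinases and 5 of 5 scaffolds had negative values, against 55.4% of all genes, with a family median of -0.06 against -0.02 over all genes. Without SAM/P-8 CCH replicate 4, the array with the high striatal score, the counts were 38, 22 and 4, against 53.9% of all genes. Leaving out any 1 of the other arrays gave 41 to 46 members, 25 to 27 kinases and 4 or 5 scaffolds. On the control diet 30 of 64 were negative, with a median of 0.00 against -0.01. Under quantile normalization, median scaling and the normexp background 41, 48 and 48 of 64 members were negative on the CCH diet and 29, 29 and 33 on the control diet. These settings themselves moved the strain difference on the CCH diet, by medians of -0.024, -0.043 and -0.035 over all probes. Over the family the medians of this shift were -0.0049, -0.043 and -0.0012. The share of all genes below 0 under these settings was not counted. The family median on the control diet was below 0 only with normexp. The interaction, which tests whether the strain difference changed with diet, held 0 of 64 members by limma (0.134% of all genes passed). A single member, Map4k4, had an unadjusted p under 0.05, against 4.82% of all genes, and 0 members passed under any alternative run. The next smallest p-values were those of Dusp14 (0.73 ± 0.36, adjusted p = 0.91) and Map4k5 (-0.19 ± 0.09, adjusted p = 0.91).

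CCH changed no member past the threshold. By limma 0 of 64 passed in SAM/P-8 (0.78% of all genes), 0 in SAM/R-1 (0.104%) and 0 in the average over both strains (4.15%). At an unadjusted p under 0.05 there were 13, 5 and 17 members (20.3%, 7.81% and 26.6%), near the 18.5%, 11.2% and 24.2% of all genes. Groups did not overlap for 6 members in SAM/P-8, against 9.64% of all genes, and for 2 in SAM/R-1, against 9.86%. The 95% interval of the diet difference lay inside 0.50 log2 units of 0 for 50 members in SAM/P-8 and 46 in SAM/R-1. The 2 strain comparisons above and these 2 diet comparisons use the same 4 groups of arrays, so a group that is low shifts both.

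**Figure D3:**
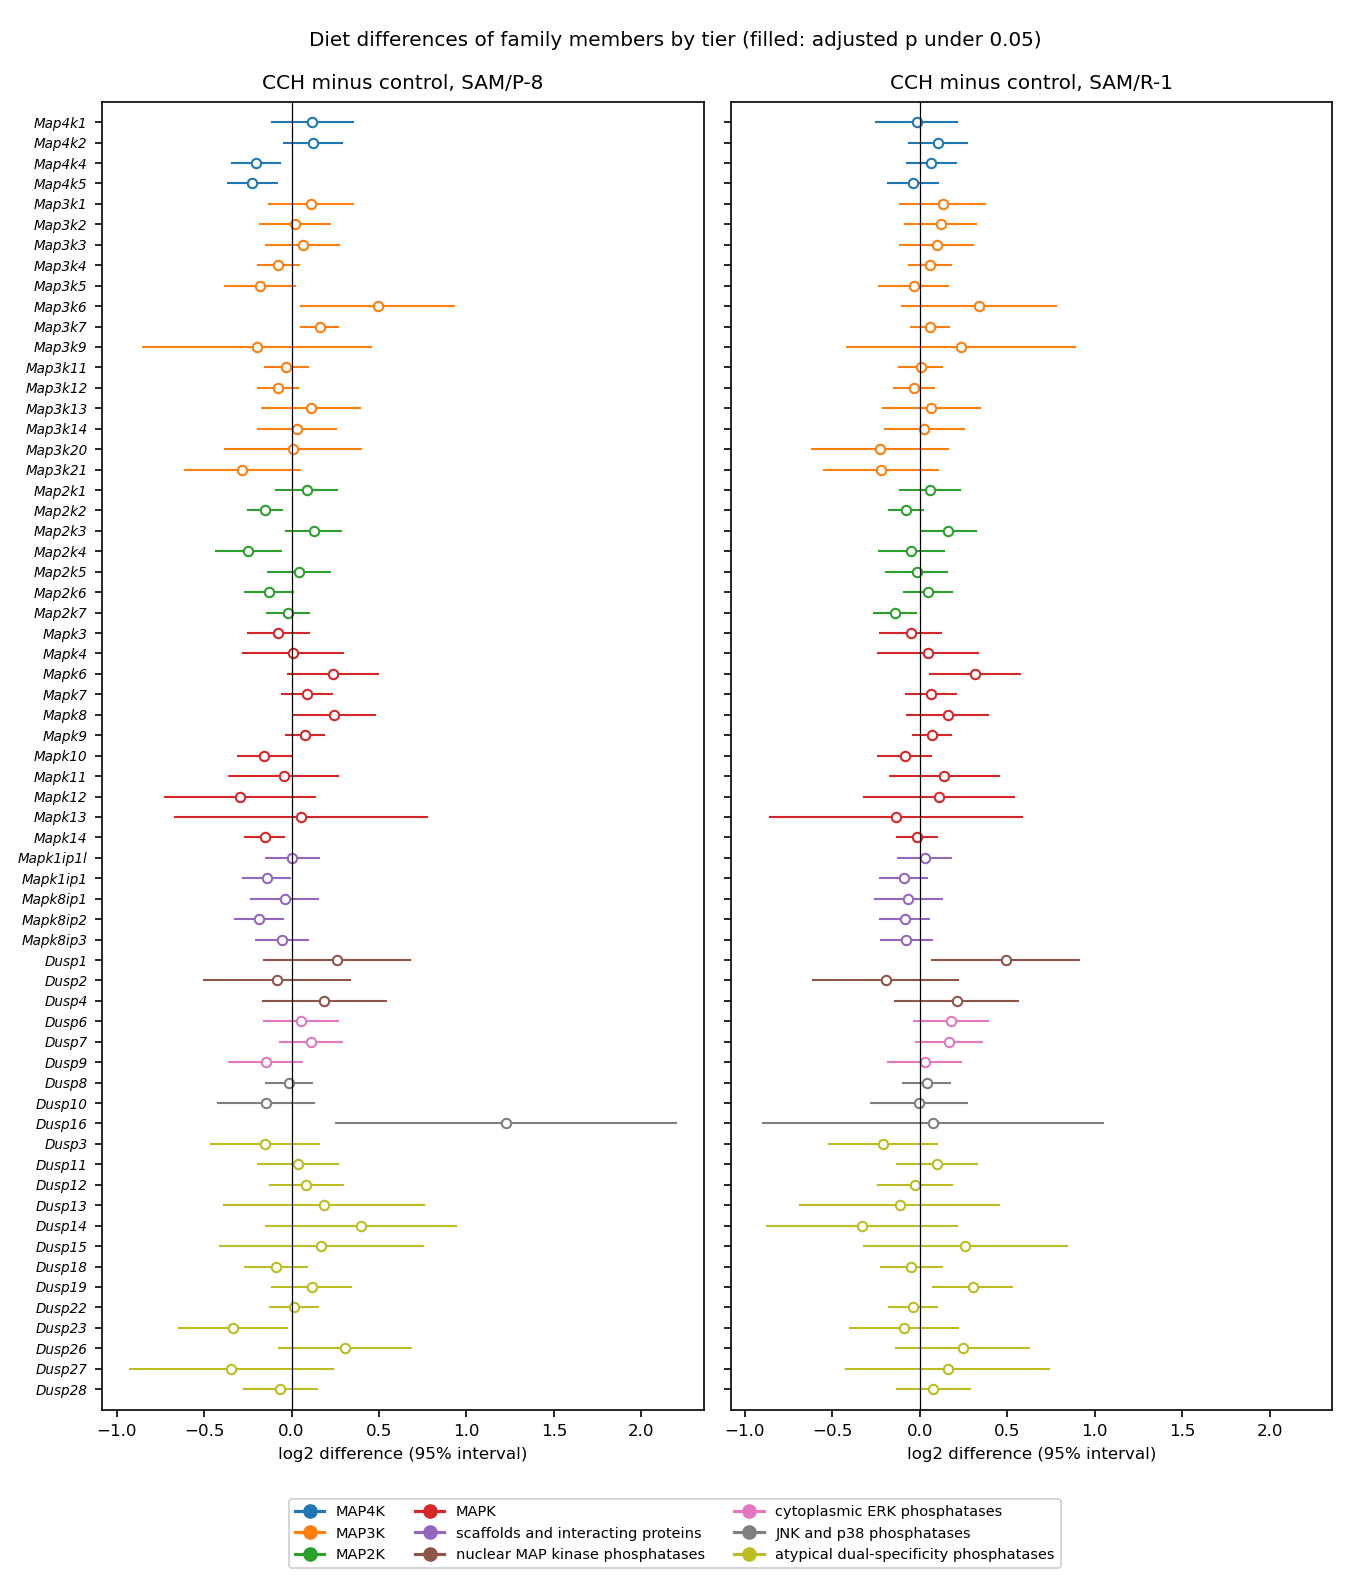
Diet difference (CCH minus control, log2) of the members reported here with its 95% interval, by tier, in SAM/P-8 at left and SAM/R-1 at right, over 4 and 4 arrays each. No point is filled, since none passed an adjusted p of 0.05; Dusp16 in SAM/P-8 has the widest departure from 0 and the widest interval.

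In SAM/P-8 the 3 smallest p-values belonged to Map4k5, Map2k2 and Map3k7. Map4k5 differed by -0.22 ± 0.07 (adjusted p = 0.11), on the SAM/P-8 CCH arrays that also set its strain difference. Map2k2 had levels of 2.59, 2.57, 2.63 and 2.58 on the control diet and 2.49, 2.45, 2.44 and 2.38 on CCH in SAM/P-8. In SAM/R-1 it had 2.58, 2.70, 2.70 and 2.64 against 2.54, 2.66, 2.53 and 2.58. The SAM/P-8 groups did not overlap and the SAM/R-1 groups did, and the differences were -0.15 ± 0.05 (adjusted p = 0.11) and -0.08 ± 0.05 (adjusted p = 0.57). Averaged over the strains, Map2k2 gave -0.11 ± 0.03, the smallest p of the family (adjusted p = 0.060, and 0.039 to 0.12 over the alternatives); it passed only without SAM/R-1 CCH replicate 2. Map3k7, the kinase TAK1 of the inflammatory branch, gave 0.16 ± 0.05 in SAM/P-8 (adjusted p = 0.12) and 0.06 ± 0.05 in SAM/R-1, with an average of 0.11 ± 0.04 (adjusted p = 0.088).

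In SAM/R-1 the smallest p-values belonged to Dusp19, Mapk6 and Map2k7. Dusp19 gave 0.30 ± 0.11 (adjusted p = 0.32), with no overlap between the 4 and 4 arrays. Mapk6, the atypical kinase ERK3, had levels of -1.77, -1.99, -2.06 and -2.18 on the control diet and -1.75, -1.57, -1.63 and -1.79 on CCH in SAM/R-1. The groups overlapped at 0.31 ± 0.12 (adjusted p = 0.36). The value in SAM/P-8 was 0.23 ± 0.12, and the average of 0.27 ± 0.08 (adjusted p = 0.079) passed only without SAM/P-8 CCH replicate 2 (0.33, adjusted p = 0.031). Map2k7, a JNK kinase, gave -0.14 ± 0.06 in SAM/R-1 (adjusted p = 0.38) and -0.02 ± 0.06 in SAM/P-8.

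The central kinases gave small diet differences, listed here in SAM/P-8 and then in SAM/R-1. Mapk3 gave -0.08 ± 0.08 and -0.05 ± 0.08. Map2k1 gave 0.09 ± 0.08 and 0.06 ± 0.08. Among Mapk3, Map2k1 and Map2k2, the -0.15 of Map2k2 in SAM/P-8 was the difference farthest from 0. Among the stress kinases Mapk8 gave 0.24 ± 0.11 and 0.16 ± 0.11, Mapk9 0.08 ± 0.05 and 0.07 ± 0.05, and Mapk10 -0.16 ± 0.07 and -0.09 ± 0.07. Mapk14 gave -0.15 ± 0.05 in SAM/P-8, where the groups did not overlap (adjusted p = 0.15), and -0.02 ± 0.05 in SAM/R-1. The 3 JNKs did not share a direction.

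Dusp1 had the highest diet value among the nuclear phosphatases. In SAM/P-8 its levels were 1.06, 0.50, 0.69 and 0.88 on the control diet and 1.23, 0.64, 1.23 and 1.05 on CCH. In SAM/R-1 they were 0.81, 0.41, 0.64 and 0.40 on the control diet and 0.62, 1.62, 1.12 and 0.86 on CCH. Groups overlapped in both strains. The differences were 0.26 ± 0.20 in SAM/P-8 (adjusted p = 0.49) and 0.49 ± 0.20 in SAM/R-1 (adjusted p = 0.38), and the average was 0.38 ± 0.14 (95% interval 0.08 to 0.67, adjusted p = 0.13, and 0.073 to 0.22 over the alternatives). Dusp4 gave 0.19 ± 0.16 and 0.21 ± 0.16, and Dusp6 0.05 ± 0.10 and 0.18 ± 0.10. The average for Dusp4 was 0.20 (adjusted p = 0.32, and up to 0.48 over the alternatives). It passed in 1 of 24 alternatives, without SAM/P-8 CCH replicate 4, where Dusp4 was at -2.84 against -2.23 to -1.85 on the other 3 arrays. There the average was 0.31 ± 0.07 (adjusted p = 0.037), and 392 of all genes passed.

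The 17 activity-induced early genes on the list (Fos, Egr1, Arc and others), which MAP kinase signalling and calcium turn on within minutes, were set beside these phosphatases. Averaged over the strains, 8 of 17 were higher on CCH and 0 lower, against 1.6% of all genes higher, with 15 at an unadjusted p under 0.05, against 24.2% of all genes. The score of the 8 hippocampal neuron markers moved with diet as well: its medians were 0.12 on the control diet and -0.10 on CCH in SAM/P-8, where the groups overlapped (-0.0032 to 0.21 against -0.33 to 0.09). The -0.33 belonged to SAM/P-8 CCH replicate 4, the array with the high striatal score, and the other replicates of that group had -0.18 to 0.09. In SAM/R-1 the medians were 0.06 and -0.03, without overlap (-0.01 to 0.09 against -0.10 to -0.02). By limma 2 of the 8 markers were lower on CCH averaged over the strains and 0 higher, and 7 of 8 had negative values. The 8 choroid plexus markers had negative diet values as well, 8 of 8 in each strain, with 0 called. Their median was -0.46 in SAM/P-8 and -1.01 in SAM/R-1. The part of these marker shifts in the early genes and in the diet values of the family was not tested. Averaged over the strains, all 17 early genes had positive values with a median of 0.43. All 17 stayed positive under quantile normalization, median scaling and normexp. Leaving out SAM/P-8 CCH replicate 1 or 3, SAM/P-8 control replicate 2 or SAM/R-1 CCH replicate 2 gave 16. Within SAM/P-8 16 were positive, and within SAM/R-1 17. The count of 8 was not stable: median scaling gave 3, normexp 0, and leaving out 1 array 1 to 10. It was 6 without SAM/P-8 CCH replicate 4, and 1 or 2 without any 1 of SAM/P-8 CCH replicates 1 and 3, SAM/P-8 control replicates 2 and 3, SAM/R-1 CCH replicates 3 and 4 and SAM/R-1 control replicates 2, 3 and 4. Among the 8 were Egr2 (0.84 ± 0.21, adjusted p = 0.040), Egr4 (0.57 ± 0.11, adjusted p = 0.016) and Arc (0.56 ± 0.13, adjusted p = 0.033), which passed in 12, 23 and 14 of 24 alternatives. Within SAM/P-8 and within SAM/R-1, 0 of 17 passed by limma, with 10 and 12 at an unadjusted p under 0.05, against 18.5% and 11.2% of all genes. The list was put together with earlier results of these data known, so its direction is not independent evidence.

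The mean level of the 17 early genes, after centring each gene over the arrays, was used as a score for each array. It ran from -0.46 to -0.04 in SAM/P-8 control, from -0.04 to 0.40 in SAM/P-8 CCH, from -0.35 to -0.04 in SAM/R-1 control and from -0.13 to 0.45 in SAM/R-1 CCH. The diets overlapped in both strains. In a limma fit with the group means and this score, chosen after the data were seen, Dusp1 had a slope of 1.30 ± 0.21 log2 units per unit of score within groups and did not pass (adjusted p = 0.10, rank 7 of 13458 genes by p). Of the 6 genes ranked before it, 5 (Fos, Fosb, Arc, Egr1 and Junb) are part of the score. Leaving out 1 array at a time gave 1.14 to 1.49, with adjusted p from 0.013 to 0.57 and 1 of 16 under the threshold. The slope of Dusp6 was 0.44 ± 0.17 (adjusted p = 0.85) and that of Dusp4 0.45 ± 0.32 (adjusted p = 0.96). By limma 0 of 64 members and 4 genes in all (0.0297%) passed, 3 of them (Fos, Fosb and Arc) part of the score itself. At an unadjusted p under 0.05 there were 4 members (6.25%), near the 6.15% of all genes. Of the members, 43 of 64 had a positive slope, against 46.5% of all genes. Score and levels come from the same arrays and share their scaling.

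**Figure D4:**
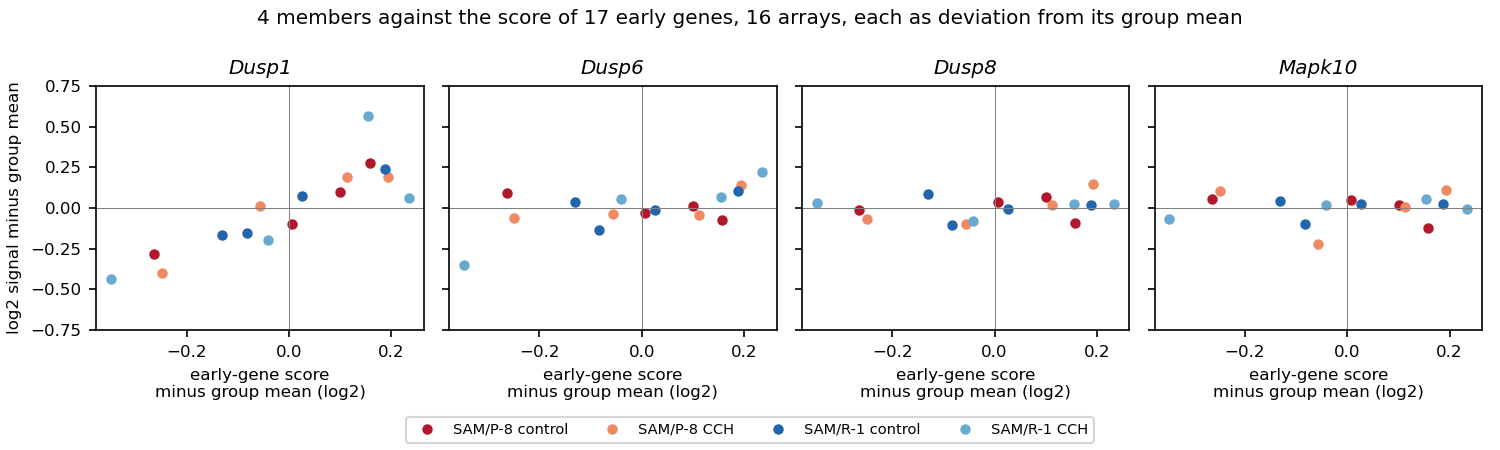
Deviation of Dusp1, Dusp6, Dusp8 and Mapk10 from their group mean (log2, vertical) against the deviation of the early-gene score from its group mean (log2, horizontal), 1 point for each of the 16 arrays. The fitted slopes are 1.30 for Dusp1, 0.44 for Dusp6, 0.11 for Dusp8 and 0.03 for Mapk10, and 0 of the 4 passed an adjusted p of 0.05.

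Early genes are known targets of the factor CREB, which binds the cAMP response element, so the promoters of the family were searched for its full palindrome, TGACGTCA, which reads the same on both strands. The windows span 250 bases before to 50 after each start in the RefSeq table (GRCm38.p6), and 52 of the tested members had one. The palindrome was in 3 of these 52, in Dusp1, Dusp8 and Mapk10, against 549 of 27025 genes with a window overall (2.03%), and in 1 of 13 early genes with a window, Btg2. The 250 bases before the start are shown for the 3 members because they hold the same motif while their slopes on the score ran from 0.03 to 1.30. All 3 genes are on the minus strand, at chr17:26508473-26508722, chr7:142095285-142095534 and chr5:103211335-103211584. Capitals mark the palindrome:
Dusp1: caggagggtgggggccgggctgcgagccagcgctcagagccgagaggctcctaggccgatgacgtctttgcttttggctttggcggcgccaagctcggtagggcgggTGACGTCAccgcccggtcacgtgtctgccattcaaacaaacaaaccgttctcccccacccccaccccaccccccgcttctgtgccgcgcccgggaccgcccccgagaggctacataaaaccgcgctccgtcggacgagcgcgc
Dusp8: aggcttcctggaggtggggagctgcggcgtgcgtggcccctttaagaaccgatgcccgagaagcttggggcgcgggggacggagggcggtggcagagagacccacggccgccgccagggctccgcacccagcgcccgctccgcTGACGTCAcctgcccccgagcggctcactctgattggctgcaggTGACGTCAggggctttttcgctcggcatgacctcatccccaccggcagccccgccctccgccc
Mapk10: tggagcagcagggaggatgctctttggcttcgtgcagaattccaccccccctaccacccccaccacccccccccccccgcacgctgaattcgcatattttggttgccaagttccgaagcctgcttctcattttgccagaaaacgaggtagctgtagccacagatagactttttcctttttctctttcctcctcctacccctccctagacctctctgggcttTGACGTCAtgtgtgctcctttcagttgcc
The match in Dusp1 starts 143 bases before the start, the first of 2 matches in Dusp8 107 bases before and the match in Mapk10 29 bases before. Dusp8, a phosphatase of JNK and p38, had a slope of 0.11 ± 0.13 (adjusted p = 0.98), and Mapk10 one of 0.03 ± 0.15 (adjusted p = 1.00), beside the 1.30 ± 0.21 of Dusp1. A match is a description of the sequence and not a binding site.

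The wider pathway was read from lists of its other genes, by limma with the same threshold. Between the strains the shares of all genes to set these counts against were 12.8% and 12.6% past the threshold and 26.4% and 27.3% at an unadjusted p under 0.05, on the control and CCH diets. Of the lists, the Ras and Raf layer on the control diet (16.7%) and the downstream kinases on the CCH diet (18.2%) lay above the share past the threshold, by 1 gene or less. Of 18 genes of the Ras and Raf layer tested, Shc1, an adaptor of growth factor receptors, was higher in SAM/P-8 on the control diet (0.39 ± 0.10, adjusted p = 0.016), and Hras (-0.24 ± 0.07, adjusted p = 0.030) and Grb2 (-0.15 ± 0.05, adjusted p = 0.048) were lower; on the CCH diet 0 passed, with 6 at an unadjusted p under 0.05. On the control diet 7 of these 18 had an unadjusted p under 0.05 by limma (38.9%). Among 11 inhibitors of Ras and Raf there were 2 on the control diet (18.2%) and 6 on the CCH diet (54.5%). Past the threshold, 1 inhibitor was lower in SAM/P-8 on each diet. This was Spry4, an inhibitor of receptor signalling to ERK, at -0.69 ± 0.17 (adjusted p = 0.013) and -0.78 ± 0.17 (adjusted p = 0.0065). Of 11 kinases downstream, Rps6ka1 (RSK1), a kinase that ERK activates, was lower in SAM/P-8 on both diets, at -0.26 ± 0.05 (adjusted p = 0.0029) and -0.17 ± 0.05 (adjusted p = 0.045), and Rps6ka4 was lower on the CCH diet, at -0.15 ± 0.05 (adjusted p = 0.048). Of 15 transcription factors that MAP kinases phosphorylate, 1 was lower on the control diet, Jund (-0.24 ± 0.07, adjusted p = 0.044), and 0 passed on the CCH diet, with 4 at an unadjusted p under 0.05. The downstream kinases held 2 and 2 at an unadjusted p under 0.05, and the transcription factors 4 on the control diet. Of 14 stress kinase adaptors, 0 passed on either diet, with 4 and 4 at an unadjusted p under 0.05. Over 17 alternatives Shc1 passed in 14, Hras in 10, Grb2 in 5, Jund in 5 and Rps6ka4 in 6, Rps6ka1 in 16 on the control diet and 5 on the CCH diet. Spry4 passed in 14 and 15 of 16. All of these genes kept their direction. The Spry4 difference ran from -0.76 to -0.24 on the control diet, with adjusted p up to 0.9998. On the CCH diet it ran from -0.92 to -0.45, with adjusted p up to 0.69. Spry4 had no value in 1 of the 17 alternatives. The same held for Dusp16 and Dusp27, which were not well above background on all 16 arrays. On how many arrays of each strain Spry4 was well above background was not examined here. Its calls may therefore not be independent of the filter.

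For the diet, averaged over the strains, the list genes that passed outside the early genes were 2, both higher on CCH. Spred1, a brake on Ras, gave 0.23 ± 0.05 (adjusted p = 0.038), and Etv5, an ETS factor known to follow ERK activity, gave 0.27 ± 0.06 (adjusted p = 0.033). Spred1 passed in 10 and Etv5 in 12 of 24 alternatives, with the same direction in all. They were 1 of 11 inhibitors and 1 of 15 transcription factors, against 1.6% of all genes higher. In the Ras and Raf layer, the downstream kinases and the stress adaptors 0 passed, with 0, 2 and 4 at an unadjusted p under 0.05, against 24.2% of all genes. Within each strain 0 genes of these lists passed by limma, with 0 to 3 of a list at an unadjusted p under 0.05, against 18.5% and 11.2% of all genes.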

How the data were processed

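RNA of 16 hippocampus samples was labelled with Cy3 and hybridised to 1 array each. The deposited single-array files give spot brightness as an intensity, both processed and as the median signal and background, from Agilent Feature Extraction 9.5.3.1 per the file headers. Other deposited columns are yes-or-no flags that say, per the file headers, whether a spot was well above background, saturated or non-uniform. The deposited table of the authors is on a log2 scale with each probe centred on its median over the arrays and with its scaling not stated. Its correlation with the centred scanner values was at least 0.9997 for every array, and the medians of its columns ran from -0.04 to 0.04.

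Over all arrays 187 non-uniform spots were left out and 2 were saturated. Levels were log2 signals less the 75th percentile of their array, averaged over the spots of a probe, with 92 values missing among the probes kept. Probes were named through their RefSeq accession. limma 3.58.1 in R 4.3.3 fitted 4 group means, with 12 residual degrees of freedom, and 6 contrasts. The scripts were tested on simulated data.

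The members and gene lists were chosen with earlier results of these data known. For each contrast the members past the threshold were named, up to 14, or, with none past it, the 3 members of smallest p. Mapk3, the MEKs, the JNKs, p38 alpha, Dusp1, Dusp4 and Dusp6 were always given, as were members whose probes disagreed in sign with 1 past the threshold and, for each list, up to 3 genes past the threshold. Other members (Map4k1, Map3k6, Map2k5, Dusp8, Dusp9, Dusp14) were named after their values were seen. A member that counts toward the family totals is not reported here by name. Alternatives were quantile normalization, median scaling, the normexp background with an offset of 50 on the median signal, no filter, a filter over all 16 arrays, only the groups compared, the replicate block, the authors' table, the mean over probes, and leaving out each array. Same-numbered replicates of different groups did not deviate together: over 24 pairs the correlations ran from -0.25 to 0.30 and 6 were over 0.1.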

Additional observations from a re-analysis of the deposited data

Results flagged for a closer look

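Of 88 groups of 4 arrays checked over 22 named members, 7 held an array far from the other 3, and chance flags about 1 in 20 groups. Mapk3 was at 2.20 in SAM/P-8 control replicate 1 (others 2.46 to 2.51) and at 2.78 in SAM/R-1 control replicate 3 (others 2.50 to 2.55). Mapk14 was at 2.92 in SAM/P-8 control replicate 3 (others 2.76 to 2.79) and at 2.74 in SAM/R-1 CCH replicate 1 (others 2.79 to 2.80). Mapk10 was at 4.33 in SAM/R-1 control replicate 2 (others 4.46 to 4.48). Dusp6 was at 4.11 in SAM/P-8 CCH replicate 3 (others 3.91 to 3.93). The dim probe of Dusp16 was at -6.87 in SAM/R-1 control replicate 4 (others -5.59 to -5.43). No member passed the limma test of a strain by diet interaction.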

How the results depend on the processing

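Dusp12 passed in all 17 alternatives on each diet. With the normexp background 1 member, Dusp12, passed on each diet in place of 4 and 6, while the count over all genes fell to 480 and 410, and Dusp27 on the CCH diet turned to -0.12 (adjusted p = 0.89). Leaving out 1 array gave 3 to 6 members on the control diet and 5 to 6 on the CCH diet, 0 to 3 for the averaged CCH effect, and 0 to 0 for the CCH effect in each strain and the interaction. The 3 were Map3k6, Map4k5 and Mapk8ip2, without SAM/P-8 control replicate 1, where 1040 of all genes passed. Dusp4 and Map2k3 passed without SAM/P-8 CCH replicate 4 (392 of all genes) and Mapk6 without SAM/P-8 CCH replicate 2 (675). Map2k2 passed without SAM/R-1 CCH replicate 2 (-0.13, adjusted p = 0.039), where 596 of all genes passed. Over all genes the averaged CCH effect passed for 62 to 1040 (558 in the report), the effect in SAM/P-8 for 0 to 201 (105) and in SAM/R-1 for 0 to 19 (14). All other alternatives gave 3 to 5 members on the control diet, 4 to 6 on the CCH diet and 0 for the diet comparisons. With no filter on dim probes 67 members were tested. Map3k7cl, which the filter had set aside, was 1 of the 4 that passed there on the control diet. Scaling changes moved the median of all genes by less than 0.10 log2 units. With the replicate block 4 and 5 members passed between the strains and 0 in the other comparisons; Map3k12 on the control diet (adjusted p = 0.083) and Dusp16 (adjusted p = 0.059) were lost and Map4k1 was gained. The numbers are not known to pair animals, and on 16 of 16 arrays they match the slide position. Signal over background limits Dusp13, Dusp16 and Dusp27, the 3 of 64 members not well above background on all 16 arrays.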
